A study of Mus musculus with 6 samples.

Results

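Lipid-associated phagocytic macrophages are tissue macrophages that take up dead cells and modified lipoprotein, store or export the lipid, and carry a characteristic set of receptors and lysosomal proteins. The surface receptor TREM2 binds lipids and lipoproteins and signals through the adaptor TYROBP (DAP12), and together with scavenger receptors, lipid carriers and the cholesterol exporter ABCA1 it is known from atherosclerotic plaque, adipose tissue and healing infarcts. The 10 genes Trem2, Tyrobp, Gpnmb, Cd9, Apoe, Msr1, Cd68, Fabp5, Mertk and Abca1 were chosen by symbol from this programme, out of the 38293 genes of the counts table. Earlier results of these data were known when they were chosen. All 10 were found and all 10 passed the filter on low counts, as did 14746 genes in all.

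RNA was sequenced from whole heart tissue of mice in 2 groups of 3, WT and Zeb2 cKO, all on a backcrossed C57BL/6J background, all adult and all 14 days after permanent occlusion of the left anterior descending coronary artery. WT mice carried both floxed Zeb2 alleles (Zeb2 fl/fl) without Cre, and Zeb2 cKO mice carried the same alleles with Cre under the cardiomyocyte promoter Myh6 (αMHC), so effects of Cre itself and of the deletion cannot be told apart. The labels place the tissue in the border region of the infarct, whereas the study's methods name the remote zone. Macrophages were not targeted by this Cre and were read here only as part of the tissue RNA, in which fewer cells of a type and less RNA per cell cannot be told apart. Several of the 10 genes, among them Apoe, Cd9, Fabp5 and Abca1, are known to be transcribed in other cell types as well, so their tissue level is not a macrophage level.

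The libraries held 37288174 to 51136331 counts, of which 60.5% to 67.0% were mitochondrial. Levels are given in CPM, the read count relative to the library size scaled by trimmed mean of M values (TMM). One library stood apart across the whole table: WT replicate 2 (WT 2) had a mean distance of 95.2 to the others (log2 CPM), against 56.7 to 63.1 for the other 5. The 12 macrophage markers summed to 532 CPM in WT 2 and to 165 to 223 CPM in the other 5 libraries (198 to 214 in Zeb2 cKO), with 11 of 12 highest in WT 2. The 10 fibroblast markers summed to 9693 CPM in WT 2 and to 1718 to 2369 elsewhere, and the 10 cardiomyocyte markers to 12430 CPM in WT 2 and to 20350 to 25944 elsewhere. The 10 endothelial markers summed to 489 CPM in WT 2 and 588 to 709 CPM in the other 5. The 7 neutrophil, 8 lymphocyte and 6 adipocyte markers were scarce, with 5, 7 and 5 of them under 1 CPM in every library, and summed to 5.2 CPM in WT 2 and 1.52 to 3.41 CPM in the other 5 for neutrophils, 3.96 CPM in WT 2 and 1.2 to 2.2 CPM in the other 5 for lymphocytes and 0.342 CPM in WT 2 and 0.531 to 2.96 CPM in the other 5 for adipocytes. The part of these cell contents in the results was not tested. The defining macrophage markers were present in every library: Csf1r, the receptor for the macrophage growth factor CSF1, ranged from 31.1 to 78.8 CPM, and Adgre1, which encodes F4/80, from 11.6 to 54.0 CPM. Zeb2, the deleted gene, measured 61.3, 116 and 71.9 CPM in WT replicates 1 to 3 and 59.6, 72.6 and 66.5 CPM in Zeb2 cKO, so the groups overlapped (log2 fold change of Zeb2 cKO over WT -0.33 ± 0.25 (SE), adjusted p = 0.957). Without WT 2 the log2 fold change of Zeb2 was -0.0058, and these whole-tissue counts alone therefore did not separate the genotypes at the targeted gene. The paper reports the loss of ZEB2 from cardiomyocytes after infarction by qPCR and immunofluorescence. It also reports ZEB2 in other cardiac cells, among them macrophages, whose part in the Zeb2 counts was not tested.

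Transcripts of 8 of the 10 genes were most abundant in a single WT library, WT 2, and no gene of the 10 differed between the genotypes past the test. In WT 2, 7 of the 10 genes exceeded the mean of the other 5 libraries by over 2-fold: Gpnmb by 14.3-fold, Trem2 by 5.47-fold, Tyrobp by 4.54-fold, Apoe by 4.40-fold, Cd68 by 3.72-fold, Cd9 by 2.59-fold and Msr1 by 2.12-fold. Abca1 (1.36-fold), Mertk (1.16-fold) and Fabp5 (0.719-fold) lay near the other libraries or below them. Of all tested genes, 35.2% were highest in WT 2 and 9.33% exceeded the other 5 by over 2-fold there. WT 2 was singled out for its distance from the other libraries, so these folds are a description of 1 library and were not tested.

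**Figure D1:**
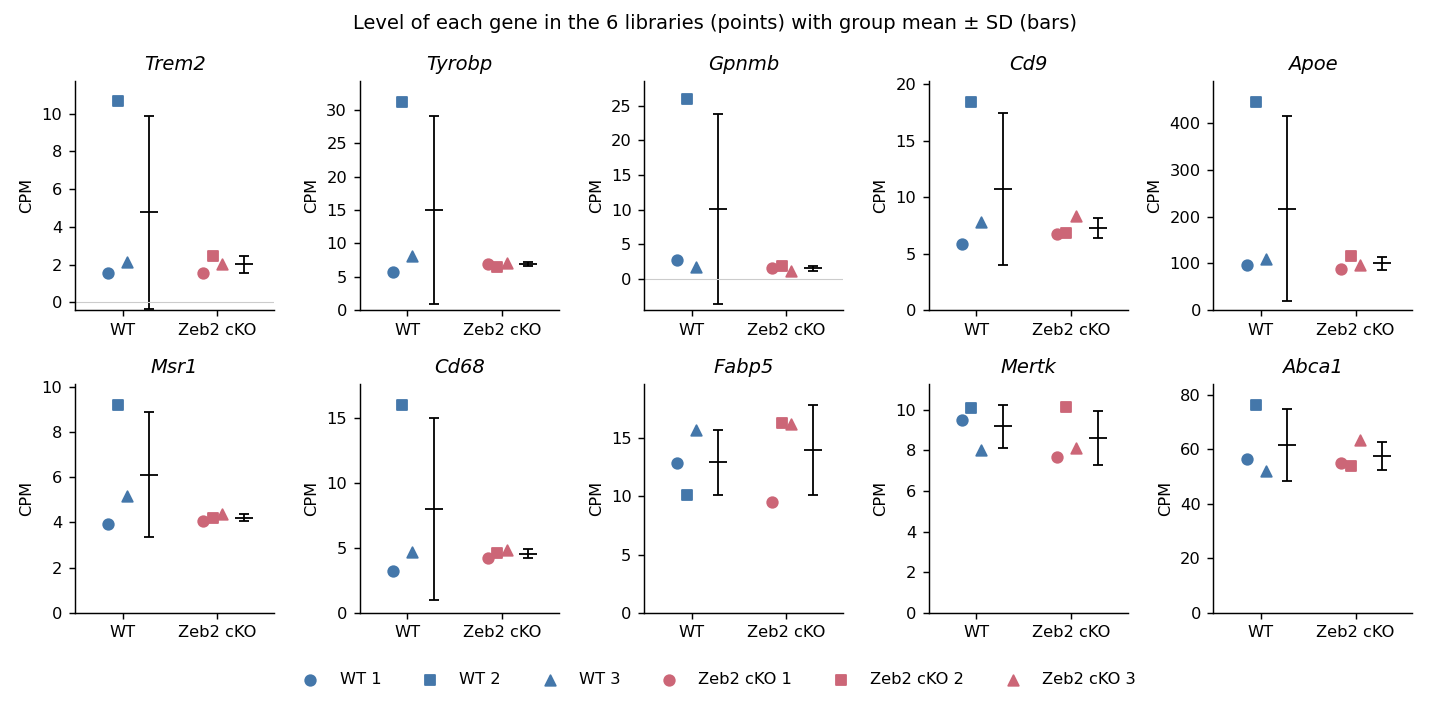
Level of the 10 genes in each library, in CPM (vertical axes, linear), for WT (blue) and Zeb2 cKO (red); points are the 3 replicates of each group, and bars give the mean ± SD. WT 2 is the square in blue: it lies far above the other 5 points for Gpnmb, Trem2, Tyrobp, Apoe and Cd68, and among them for Fabp5 and Mertk.

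For the whole set, the log2 fold change of Zeb2 cKO over WT was under -0.2 in 7 of 10 genes and over 0.2 in 0 of 10, where 22.6% of all tested genes were under -0.2. Their median log2 fold change was -0.69, against -0.0069 over all tested genes. The genes were chosen with earlier results known, so both comparisons are descriptions and were not tested. After Benjamini-Hochberg adjustment of the edgeR quasi-likelihood p-values over 14746 genes, 0 of the 10 genes and 0 genes in all (0%) had an adjusted p under 0.05, and DESeq2 called 1 gene in all and none of the 10. At an unadjusted p under 0.05, 1 of 10 genes was lower in Zeb2 cKO (Gpnmb), against a background of 0.861% of tested genes in that direction (127 of 280 genes with such a p). The adjusted p was 0.957 for 9 genes and 0.961 for Fabp5, and the unadjusted edgeR p-values ran from 0.0333 (Gpnmb) to 0.662 (Fabp5). The 2 groups overlapped in all 10 genes, where 6.36% of tested genes did not overlap.

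Without WT 2, the median log2 fold change of the 10 genes was -0.012, and 1 of 10 (Gpnmb) stayed under -0.2 while 1 (Cd68, 0.20) was over 0.2. A share of 11.7% of the 14966 genes tested then were under -0.2. None of the 10 genes had an unadjusted p under 0.05 without WT 2, where 1.08% of tested genes had such a p and were lower in Zeb2 cKO (393 genes in either direction). The count of the 10 that were lower at that threshold depended on the library left out: it was 7 without WT 1, where 5.49% of tested genes were, 2 without WT 3, where 1.7% were, and 0 without any one of the Zeb2 cKO libraries. The lowest adjusted p among these fits was 0.596, without WT 1. DESeq2 on all 6 libraries gave 3 of the 10 lower at an unadjusted p under 0.05, against 1.09% of genes.

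**Figure D2:**
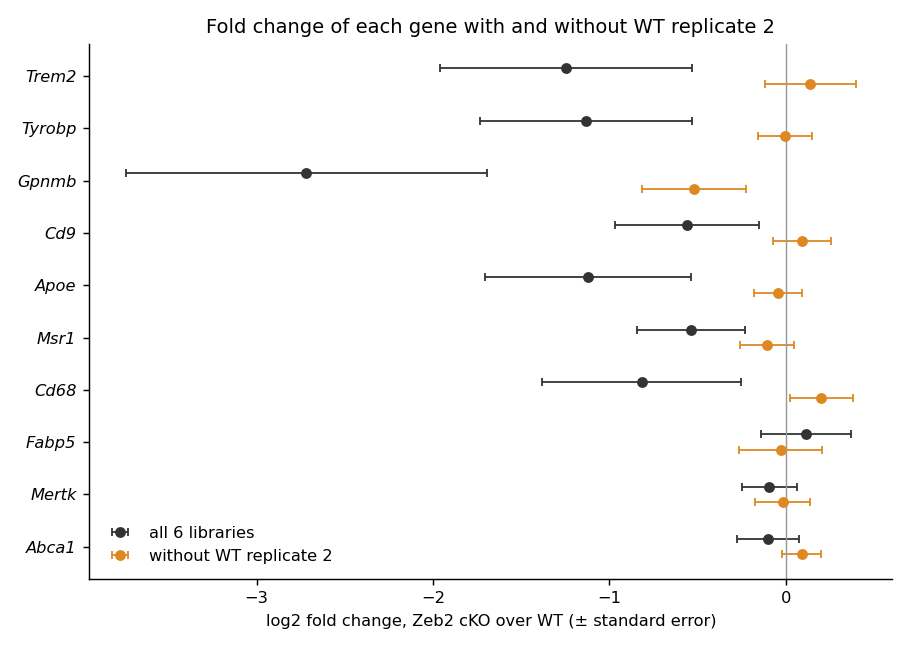
Log2 fold change of Zeb2 cKO over WT for each gene with its standard error, from edgeR on all 6 libraries (black) and without WT 2 (orange). With all libraries 7 genes lie under -0.2; without WT 2 all but Gpnmb lie between -0.11 and 0.20.

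The TREM2 receptor complex was read from its receptor and its adaptor. Trem2 (ENSMUSG00000023992, chr17:48346401-48354147, plus strand, GRCm38, protein-coding) measured 1.54, 10.7 and 2.14 CPM in WT replicates 1 to 3 and 1.56, 2.47 and 2.05 CPM in Zeb2 cKO replicates 1 to 3. Outside WT 2 the libraries of both genotypes lay in one narrow range, and the lowest count of any of the 10 genes was 58 reads, for Trem2 in WT 1. The log2 fold change was -1.25 ± 0.72 (SE, adjusted p = 0.957) with all libraries and 0.14 ± 0.26 without WT 2. Tyrobp (ENSMUSG00000030579, chr7:30413760-30417585, plus strand), which carries the activating motif that TREM2 lacks, measured 5.76, 31.2 and 8.05 CPM in WT and 6.93, 6.52 and 7.13 CPM in Zeb2 cKO. The 3 Zeb2 cKO values lay between WT 1 and WT 3. Its log2 fold change was -1.13 ± 0.60 with all libraries and -0.0052 ± 0.15 without WT 2. Exact two-sided permutation tests of the CPM values gave p = 0.7 for Trem2 and p = 0.5 for Tyrobp, where 3 mice against 3 cannot give less than 0.1.

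Uptake receptors differed in how far WT 2 stood out. Msr1 (ENSMUSG00000025044, chr8:39581685-39642673, minus strand), a scavenger receptor for modified lipoprotein, measured 3.93, 9.21 and 5.16 CPM in WT and 4.06, 4.19 and 4.37 CPM in Zeb2 cKO. All Zeb2 cKO libraries lay between WT 1 and WT 3, and the log2 fold change was -0.54 ± 0.30 with all libraries and -0.11 ± 0.15 without WT 2. Mertk (ENSMUSG00000014361, chr2:128698956-128802894, plus strand), the receptor kinase that recognises bridging proteins on dead cells, measured 9.48, 10.1 and 8.02 CPM in WT and 7.65, 10.1 and 8.10 CPM in Zeb2 cKO. Its range was much the same in both groups, WT 2 included (log2 fold change -0.093 ± 0.16). The exact permutation p was 0.4 for Msr1 and 0.8 for Mertk.

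Among the lipid carriers and the cholesterol exporter, Apoe was high in WT 2 while Abca1 and Fabp5 were closer to even. Apoe (ENSMUSG00000002985, chr7:19696109-19699188, minus strand), the apolipoprotein that macrophages secrete with exported lipid, measured 96.8, 446 and 110 CPM in WT and 88.3, 115 and 96.3 CPM in Zeb2 cKO. WT 2 was the one library outside a range of 88.3 to 115 CPM, and the log2 fold change was -1.12 ± 0.59 with all libraries and -0.042 ± 0.14 without WT 2. Abca1 (ENSMUSG00000015243, chr4:53030787-53159895, minus strand), which moves cholesterol onto lipid-poor apolipoprotein, measured 56.3, 76.5 and 52.0 CPM in WT and 55.0, 54.0 and 63.5 CPM in Zeb2 cKO (log2 fold change -0.10 ± 0.18). Fabp5 (ENSMUSG00000027533, chr3:10012548-10016607, plus strand), an intracellular fatty acid carrier, measured 12.9, 10.2 and 15.7 CPM in WT and 9.51, 16.3 and 16.2 CPM in Zeb2 cKO. For Fabp5 the spread lay within each genotype, WT 2 and Zeb2 cKO 1 being the low libraries (log2 fold change 0.12 ± 0.25). Of its longest coding transcript, 41.3% was near-identical (at least 95% over 75 bases) to the genes Gm6166 and Gm14328, so its counts are uncertain. The exact permutation p was 0.4 for Apoe and 0.8 for both Abca1 and Fabp5.

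Membrane and lysosomal proteins included the gene with the largest contrast. Gpnmb (ENSMUSG00000029816, chr6:49036546-49070929, plus strand), a glycoprotein of lysosomes and phagosomes in lipid-laden macrophages, measured 2.76, 26.0 and 1.67 CPM in WT and 1.56, 1.91 and 1.17 CPM in Zeb2 cKO. WT 1 was above all Zeb2 cKO libraries and WT 3 lay among them. The log2 fold change was -2.72 ± 1.02 (adjusted p = 0.957) with all libraries and -0.52 ± 0.30 without WT 2. The exact permutation p was 0.2. Gpnmb is also known from osteoclasts and melanocytes: the 6 osteoclast markers summed to 17.2 CPM in WT 2 and 3.42 to 7.61 CPM in the other 5, of which the protease Ctsk, which fibroblasts also make, gave 14.2 CPM in WT 2, and the 5 melanocyte markers summed to 1.32 CPM in WT 2 and 0.837 to 1.85 CPM in the other 5. Cd68 (ENSMUSG00000018774, chr11:69664213-69666153, minus strand), a heavily glycosylated lysosomal membrane protein widely used as a macrophage stain, measured 3.24, 16.0 and 4.66 CPM in WT and 4.18, 4.59 and 4.84 CPM in Zeb2 cKO. Its log2 fold change changed sign with WT 2, from -0.82 ± 0.56 to 0.20 ± 0.18 without it. Cd9 (ENSMUSG00000030342, chr6:125460266-125494791, minus strand), a tetraspanin that organises membrane proteins, measured 5.87, 18.4 and 7.84 CPM in WT and 6.73, 6.80 and 8.30 CPM in Zeb2 cKO, with log2 fold changes of -0.56 ± 0.41 and, without WT 2, 0.091 ± 0.16. The antisense gene Gm26728 overlaps an exon of Cd9, and 17.8% of the longest coding transcript of Cd9 was shared with it. The libraries were made with a stranded kit. The exact permutation p was 0.8 for Cd68 and 0.7 for Cd9.

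Levels between genes were compared per kilobase of the longest coding transcript, in Zeb2 cKO, the group without WT 2. Its 3 libraries were not even for every gene, as Fabp5 measured 9.51, 16.3 and 16.2 CPM in them. Apoe was highest at 71.0 ± 9.91 CPM per kb (SD, n = 3), followed by Fabp5 (14.2 ± 3.95), Tyrobp (11.5 ± 0.518), Cd9 (5.93 ± 0.722), Abca1 (5.60 ± 0.506), Cd68 (3.69 ± 0.272), Mertk (2.01 ± 0.308), Trem2 (1.86 ± 0.417), Msr1 (1.16 ± 0.0437) and Gpnmb (0.418 ± 0.10). Fabp5 and Tyrobp, Cd9 and Abca1, and Mertk and Trem2 were neighbours that differed by less than their spread. In WT 2 Gpnmb reached 7.01 CPM per kb and so exceeded Msr1 (2.53) and Mertk (2.35), whereas in Zeb2 cKO it was the lowest of the 10. Per kilobase of all merged exons the middle of the order changed (Trem2 0.409, Fabp5 3.93 CPM per kb in Zeb2 cKO), and Apoe (46.8) and Gpnmb (0.238) remained at the ends.

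Because macrophage markers moved with WT 2, each gene was also set against the geometric mean of the 12 macrophage markers, none of which is one of the 10 genes. On this log2 ratio, WT 2 stood above the mean of the other 5 libraries by 2.56 for Gpnmb, 1.14 for Trem2, 0.86 for Tyrobp, 0.81 for Apoe and 0.58 for Cd68. With the median of the markers, or with Csf1r, Adgre1 and the C1q genes alone, these 5 differences stayed positive, at 2.07 to 2.27 for Gpnmb, 0.65 to 0.85 for Trem2, 0.37 to 0.56 for Tyrobp, 0.32 to 0.52 for Apoe and 0.087 to 0.28 for Cd68. The ratio of Cd9 in WT 2 was close to that of the other libraries (0.051) and the difference took the opposite sign with the other references (-0.44 and -0.24). Msr1 (-0.24), Abca1 (-0.89), Mertk (-1.11) and Fabp5 (-1.78) had a lower ratio in WT 2 than in the mean of the other 5 libraries, and the sign was the same under all 3 references. The genotypes overlapped in this ratio for all 10 genes. For Gpnmb the difference of Zeb2 cKO minus WT was -1.32 with all libraries and -0.59 without WT 2, and for the other 9 genes it lay between -0.19 and 0.13 without WT 2. The fibroblast markers also moved with WT 2, and their part in these values was not tested.

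**Figure D3:**
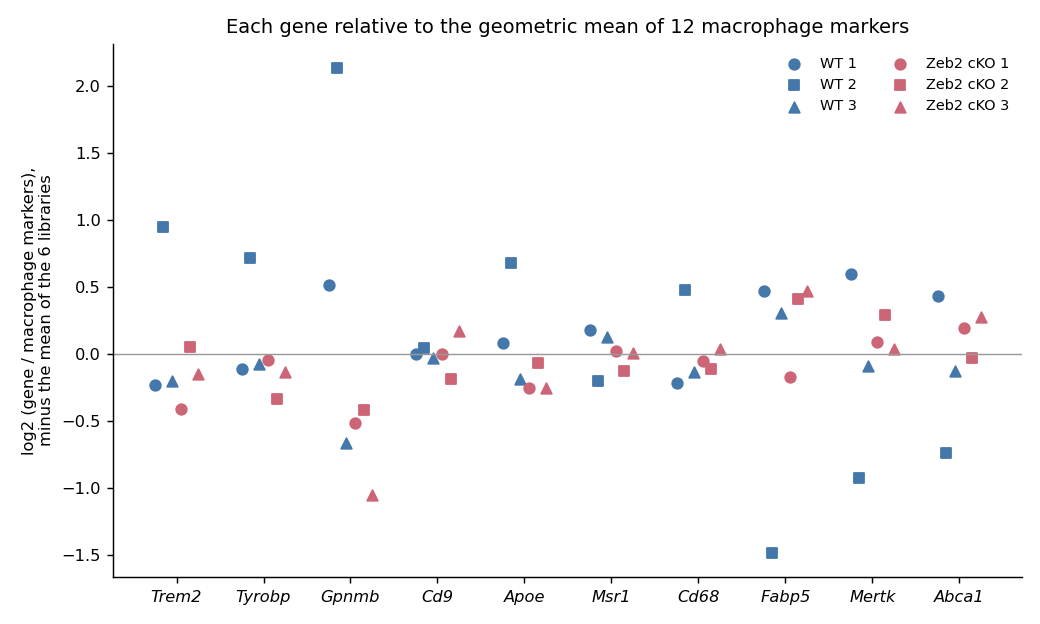
Log2 ratio of each gene to the geometric mean of 12 macrophage markers (vertical axis), centred on the mean of the 6 libraries, for WT (blue) and Zeb2 cKO (red) replicates. WT 2, the square in blue, is the highest point for Gpnmb, Trem2, Tyrobp, Apoe and Cd68 and the lowest for Msr1, Fabp5, Mertk and Abca1.

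With the mean log2 CPM of the macrophage markers as a covariate in the edgeR fit, the median log2 fold change of the 10 genes was -0.036, and 2 of 10 stayed under -0.2, Gpnmb at -0.96 ± 0.45 and Apoe at -0.23 ± 0.15. In that fit 11.1% of all tested genes were under -0.2. The covariate and the far library move together, so this fit and the one without WT 2 are not separate evidence.

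The promoters of 3 genes that were high in WT 2 (Gpnmb, Trem2, Cd68) and of 1 that was nearly even (Abca1) are shown, since the genes moved together by library. Each is the 250 bases upstream of the RefSeq start (GRCm38.p6), read on the gene's strand, with letter matches to 4 motifs in capitals: CACCTG, the E-box bound by ZEB proteins; CACGTG, the E-box bound by MiT factors of lysosomal genes; GAGGAA, the core bound by the macrophage factor PU.1; and TGAGTCA, the AP-1 site. The positions are chr6:49036268-49036517 (plus strand) for Gpnmb, chr17:48346151-48346400 (plus) for Trem2, chr11:69666171-69666420 (minus) for Cd68 and chr4:53159896-53160145 (minus) for Abca1.
Gpnmb promoter: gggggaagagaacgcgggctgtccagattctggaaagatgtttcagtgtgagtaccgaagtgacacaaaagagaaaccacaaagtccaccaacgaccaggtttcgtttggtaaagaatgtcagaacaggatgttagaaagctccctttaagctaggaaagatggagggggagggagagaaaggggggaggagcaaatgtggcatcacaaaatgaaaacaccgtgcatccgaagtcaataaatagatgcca
Trem2 promoter: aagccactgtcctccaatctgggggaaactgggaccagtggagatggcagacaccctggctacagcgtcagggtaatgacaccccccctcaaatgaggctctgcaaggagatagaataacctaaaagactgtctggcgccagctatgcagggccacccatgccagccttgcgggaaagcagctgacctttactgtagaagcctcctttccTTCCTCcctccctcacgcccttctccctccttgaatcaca
Cd68 promoter: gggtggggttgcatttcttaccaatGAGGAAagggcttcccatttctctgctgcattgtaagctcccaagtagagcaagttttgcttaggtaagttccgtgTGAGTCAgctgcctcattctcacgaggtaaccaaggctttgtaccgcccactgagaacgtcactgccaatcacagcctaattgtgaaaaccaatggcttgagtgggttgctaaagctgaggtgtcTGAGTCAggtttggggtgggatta
Abca1 promoter: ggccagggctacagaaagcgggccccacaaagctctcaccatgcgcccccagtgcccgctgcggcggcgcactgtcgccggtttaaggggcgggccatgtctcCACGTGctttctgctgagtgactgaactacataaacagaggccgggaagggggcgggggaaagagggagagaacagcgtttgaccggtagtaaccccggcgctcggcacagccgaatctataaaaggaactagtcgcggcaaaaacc

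Both strands were searched, and the motifs were chosen after some of these windows had been seen. Trem2 held GAGGAA on the opposite strand, first base 40 bases before the start. Cd68 held GAGGAA at 225 and TGAGTCA at 149 and 24 bases before it, and Abca1 held CACGTG at 147. Gpnmb held none of the 4. Windows were found for 7 of the 10 genes. Among the others, Cd9 held CACCTG on the opposite strand at 73 and Apoe GAGGAA at 250 bases before the start, and Mertk held none. Of 32851 mouse promoter windows of the same length, 17.2% held CACCTG, 6.02% CACGTG, 23.3% GAGGAA and 4.46% TGAGTCA.

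Other genes of the pathway were taken from 5 lists, of which 69 of 81 genes were tested. Over these 69 genes, 40 lay under -0.2 on the log2 fold change scale and 7 over 0.2, where 22.6% and 15.9% of all tested genes did. Without WT 2, 9 of them were under -0.2, where 11.7% of all genes were, so that count was near the background. None passed the adjusted threshold (0 of 69), and 3 had an unadjusted p under 0.05, all lower in Zeb2 cKO (0.861% of all tested genes): Spp1, Lgals3 and Atp6v0d2. The adjusted p of each list gene described here was 0.957, and their log2 fold changes are those of all 6 libraries unless stated. In 5 genes all WT libraries were above all Zeb2 cKO libraries, as in 2.97% of all tested genes: these 3, the actin-capping Capg and the TREM2-shedding protease Adam17, the last pair being named after their values were seen.

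In each list the 2 genes with the smallest unadjusted p are named. Of 8 tested genes of TREM2 signalling, all 8 were under -0.2, where 22.6% of all tested genes were. Without WT 2, 2 of the 8 were under -0.2. Their median was -0.37 and, without WT 2, -0.082. Ms4a7, a membrane protein of macrophages, measured 2.28, 23.0 and 3.54 CPM in WT and 2.20, 3.07 and 2.83 CPM in Zeb2 cKO (log2 fold change -1.84, and -0.11 without WT 2). Plcg2, the phospholipase downstream of TREM2, was flatter, at 12.3, 14.9 and 13.5 CPM against 9.37, 10.2 and 12.9 CPM (-0.33, and -0.25 without WT 2). Among 16 tested genes of dead-cell and lipoprotein uptake, 8 were under -0.2 and 3 over 0.2, or 0 and 1 without WT 2. Itgb5, part of the integrin that binds MFGE8, had -0.68, and -0.13 without WT 2. Lrp1, an endocytic receptor for APOE, had -0.72, and -0.17 without WT 2. Lipid handling was the most even list, with 5 of 18 genes under -0.2, 3 over 0.2 and a median of -0.035. Without WT 2, 2 of its genes were under -0.2 and 1 over 0.2. Srebf2, which encodes a transcription factor, had -0.42, and -0.27 without WT 2. Lipa, the lysosomal acid lipase, had -0.61, and -0.097 without WT 2.

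Lysosome and phagosome genes had a median of -0.28 with all libraries and 0.10 without WT 2. Of 19 genes, 12 were under -0.2 with all libraries and 3 without WT 2. Lgals3, the lectin that binds damaged lysosomes, measured 2.39, 14.6 and 3.39 CPM in WT and 1.96, 1.20 and 2.29 CPM in Zeb2 cKO. Every WT value was above every Zeb2 cKO value, by little outside WT 2 (log2 fold change -1.90, and -0.66 without WT 2). Atp6v0d2, a proton pump subunit, measured 0.345, 3.33 and 0.234 CPM against 0.20, 0.230 and 0.0931 CPM, a level of 5 to 13 reads outside WT 2 (-2.91, and -0.74 without it). The remaining signature genes had 11 of 14 under -0.2 and a median of -0.49. Without WT 2, 4 were under -0.2 and the median was 0.025. Spp1, osteopontin, measured 3.35, 36.0 and 3.70 CPM in WT and 1.94, 0.991 and 3.11 CPM in Zeb2 cKO (-2.83, and -0.79 without WT 2), which like Gpnmb kept a negative value without WT 2 but missed the unadjusted threshold there.

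**Figure D4:**
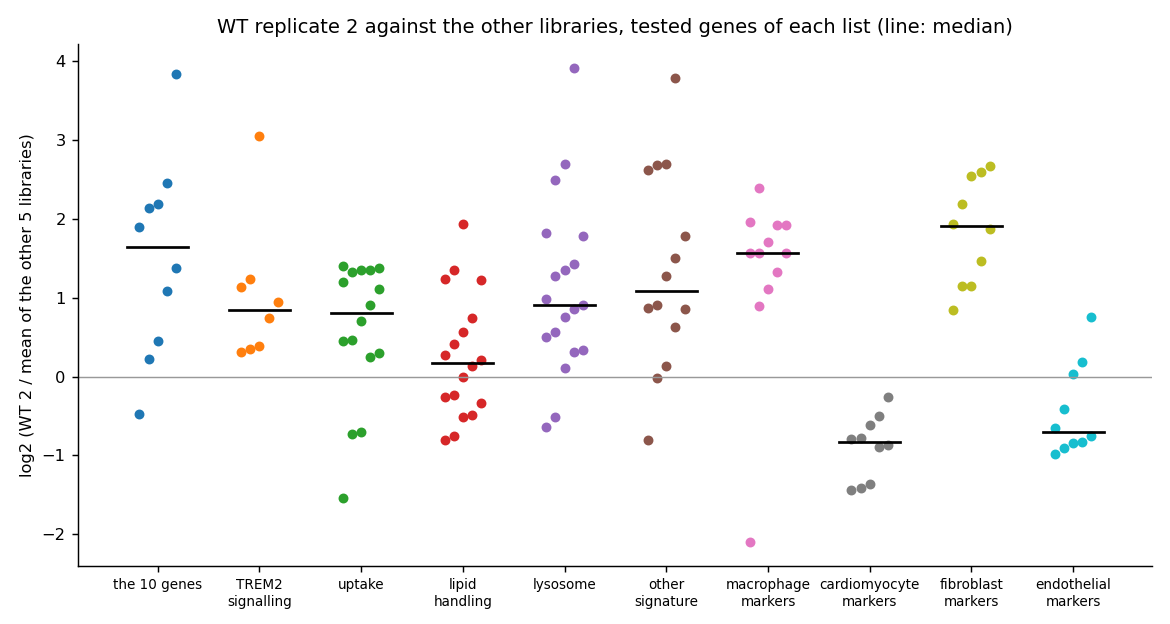
Log2 of the level in WT 2 over the mean of the other 5 libraries (vertical axis) for each tested gene of the lists; lines are medians. The 10 genes and the macrophage and fibroblast markers lie mostly above 0, cardiomyocyte markers below 0, and lipid-handling genes on both sides.

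The genes whose levels followed the mean of the 10 most closely over the 6 libraries were Tkt (Pearson r = 0.9984), Stag1 (0.9983), Slc43a3 (0.9978), Vav1 (0.9978) and Gas1 (0.9976). All rested on the high WT 2: Vav1, a signalling protein of blood cells, measured 7.91 CPM there and 1.99 to 2.47 elsewhere, and 12.4% of tested genes had r over 0.9. Over the 5 libraries without WT 2 the closest were Lmo1 (0.997), Mx1 (0.994), Samhd1 (0.9917), 2610035D17Rik (0.991) and Cyth4 (0.9908), with 1.57% of genes over 0.9. In those 5 libraries Lmo1 and Mx1 measured 0.30 to 0.81 CPM and 2610035D17Rik 0.080 to 0.39 CPM, so their correlations are imprecise. Samhd1 measured 12.7 to 15.9 CPM and Cyth4 8.03 to 8.57 CPM. All these correlations are descriptions over 6 and 5 libraries that share depth and tissue content.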

How the data were processed

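Reads of stranded, ribosomal RNA-depleted libraries were aligned and counted per gene by the authors with STAR against Gencode M4 (GRCm38), and the raw counts were deposited. Symbols, coordinates and exon lengths were taken from Gencode M21 of the same build, which named 36429 of 38293 genes. Members, gene lists and markers (169 of 171 list entries matched) were chosen with earlier results of these data known.

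Counts were tested with edgeR 4.0.16 (R 4.3.3; TMM, filterByExpr, quasi-likelihood test, Benjamini-Hochberg over 14746 genes, called at 0.05) on genotype alone. The standard error was the log2 fold change over the square root of F. The fold cutoff of 0.2 (log2) is that of the study. Single genes were also compared by exact permutation. Scripts were tested on simulated data. Alternatives were DESeq2 1.42.0, its size factors, no filter, robust dispersions, a replicate block, removal of mitochondrial genes, a macrophage covariate and leaving out each library. Shared sequence was searched with BLAST 2.17.0.

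Genes named were the 10 members, Zeb2, the 2 smallest unadjusted p per pathway list, cell markers, and the 5 most similar genes. Same-numbered libraries did not deviate together (r = 0.088, -0.14 and -0.087). The 10 genes had at least 58 reads in every library, and some genes of the pathway lists had far fewer, so their values are less precise.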

Additional observations from a re-analysis of the deposited data

How the results depend on the processing

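Of 268 alternative values, 18 had the opposite sign to the value reported: 10 of single genes, 6 of pathway list medians and 2 of the ratio to the markers. The 268 include counts of genes, which cannot take the opposite sign, so the share of signed values that changed is larger. Leaving out each library in turn, the median log2 fold change of the 10 genes ranged from -1.02 to -0.012 (without WT 2), the count under -0.2 from 1 (without WT 2) to 8, and the count lower at an unadjusted p under 0.05 from 0 (without WT 2 or any 1 Zeb2 cKO library) to 7 (without WT 1). Single genes ranged from -1.66 to 0.14 (Trem2), -0.85 to 0.091 (Cd9), -1.19 to 0.20 (Cd68), -0.028 to 0.33 (Fabp5) and -0.21 to 0.089 (Abca1). Each changed sign without WT 2, and Fabp5 also without Zeb2 cKO 2 (-0.0041) or Zeb2 cKO 3 (-0.0031). With the macrophage covariate the median was -0.036, 2 genes were under -0.2 and 0 lower at an unadjusted p under 0.05, and Cd9 (0.0083), Cd68 (0.086) and Abca1 (0.034) changed sign. Without WT 2 the medians of the uptake (0.019), lipid handling (0.015), lysosome (0.10) and other signature (0.025) lists were above 0, as were those of lipid handling (0.0042) and lysosome (0.050) with the covariate. DESeq2 gave 3 of the 10 genes lower at an unadjusted p under 0.05 (Gpnmb, Tyrobp and Apoe), against 1.09% of all genes, and called 1 gene, Slc46a2, named here after its values were seen. With the replicate block that first count was 0 and the median -0.45. The median difference of the 10 genes relative to the markers was -0.076, or 0.14 with the median of the markers and 0.069 with 5 markers. The cause of these changes was not tested.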

Other observations

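Cd163, a haemoglobin scavenger receptor of resident macrophages, went against the other macrophage markers: it measured 1.62 CPM in WT 2, the lowest of all libraries, and 5.83 to 8.34 CPM in the other 5. Fcgr1, an activating antibody receptor, measured 8.25 CPM in WT 2 and 1.01 to 1.98 CPM elsewhere. Timd4, a receptor for dead cells that marks resident macrophages, measured 0.43 CPM in WT 2 and 0.99 to 1.64 CPM in the other libraries. Mrc1, the mannose receptor, which resident macrophages also carry, went the other way, at 89.7 CPM in WT 2 and 36.9 to 52.8 CPM elsewhere. These 4 genes were chosen after their values were seen, and no test was made of 1 library.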
